A study of Mus musculus with 8 samples.

Results

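The NMDA receptor subunits are encoded in the mouse by 7 genes, *Grin1*, *Grin2a*, *Grin2b*, *Grin2c*, *Grin2d*, *Grin3a* and *Grin3b*. They were selected by gene name among the 45706 genes for which ribosome-associated mRNA of PV+ interneurons was quantified, and all 7 had a row. NMDA receptors are glutamate-gated cation channels that also need glycine or D-serine to open, and magnesium blocks their pore until the membrane is depolarized. Each receptor contains the obligatory GluN1 subunit, encoded by *Grin1*, together with GluN2 or GluN3 subunits, which set its glutamate or glycine affinity, its magnesium block and its decay. In cortical interneurons these receptors carry part of the excitatory input, and *Grin2d* is known in cortex mainly from interneurons, whereas *Grin2a* and *Grin2b* are used by both pyramidal cells and interneurons.

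The mRNA came from the primary somatosensory cortex (S1) of PvalbFlp/+;Neurod6Cre/+ mice aged P42 to P70 by the series description (the methods give a slightly later start), and genotype and virus were the same in both groups. All mice had received an AAV-flox-fdio virus at about P1 that codes for HA-RPL10a and myc-hM3Dq and gives infected PV+ cells an HA-tagged ribosomal protein and the designer receptor hM3Dq, which raises activity when its ligand CNO is present. Flp expressed from *Pvalb* switches the construct on, and Cre expressed from *Neurod6* removes it from pyramidal cells, so the tag is meant for infected cells of the *Pvalb* lineage alone. In the CNO group mice received 5 injections of CNO at 1 mg/kg over 48 h, and in the vehicle group 5 injections of vehicle. Each group had 4 samples, and each sample was one pool of tissue from 4 brains, so that n counts pools and not mice.

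The 7 genes lie on 7 chromosomes (GRCm38) and share little nucleotide sequence. *Grin1* (ENSMUSG00000026959) is at chr2:25291181-25319187, *Grin2a* (ENSMUSG00000059003) at chr16:9567898-9995560, *Grin2b* (ENSMUSG00000030209) at chr6:135713233-136173511 and *Grin2c* (ENSMUSG00000020734) at chr11:115249169-115267243. *Grin2d* (ENSMUSG00000002771) is at chr7:45831883-45878378, *Grin3a* (ENSMUSG00000039579) at chr4:49661611-49845744 and *Grin3b* (ENSMUSG00000035745) at chr10:79970715-79977190. *Grin3b* is read from the plus strand and the others from the minus strand. Over aligned coding bases, *Grin2c* and *Grin2d* were 65.7% identical, *Grin2a* and *Grin2b* 65.5%, and *Grin3a* and *Grin3b* 61.9%. *Grin1* was 54.6% to 58.7% identical to each of the other 6 genes.

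A stretch of related sequence codes for the membrane segment at the channel gate. It is shown as 42 coding bases for 5 of the genes, at least 1 from each of the GluN1, GluN2 and GluN3 groups, so that the likeness of these mRNAs, and the bases by which reads can be told apart, are visible. The sequences are taken from GENCODE release M21 transcripts on GRCm38, 5′ to 3′, and the 22 capitals are bases identical in these 5 genes.
Grin1: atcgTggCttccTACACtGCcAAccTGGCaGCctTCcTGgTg
Grin2a: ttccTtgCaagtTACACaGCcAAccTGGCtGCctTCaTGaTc
Grin2c: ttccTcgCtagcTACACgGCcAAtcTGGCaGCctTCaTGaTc
Grin3a: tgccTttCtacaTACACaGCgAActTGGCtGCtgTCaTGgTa
Grin3b: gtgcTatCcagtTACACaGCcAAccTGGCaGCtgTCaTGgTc
Even here the other 4 genes differed from *Grin1* at 10 to 15 of the 42 bases. Over whole transcripts, no member had more than 6 stretches of 31 nucleotides in common with the rest of the family.

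Sequence shared with genes outside the family was larger. In *Grin3b* it made up 27% of the 31-nucleotide stretches, all shared with *Tmem259*, whose transcript runs across the end of *Grin3b* on the opposite strand and overlaps 1059 of its exonic bases. *Grin1* shared 10.3% with its antisense transcript *Grin1os*, which had 51 to 93.5 counts against 8857 to 11321 for *Grin1*. *Grin2d* shared 8.41% with the antisense gene *Gm45441*, and *Grin2a* shared 11.9% with *Gm7328*, a processed pseudogene on chromosome 8 that copies part of its coding sequence (2131 of the 2133 shared stretches lie there). Neither of these 2 genes was quantified here. The library kit does not mark strand, so reads from stretches that a gene shares with its antisense partner could not be told apart.

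Samples had 44064161 to 49413273 counts, and 3 counts, taken as the detection floor, correspond to 0.0607 to 0.0681 CPM (counts relative to the library total). This floor allows for counting error only. PCR copies are not separate molecules, and the error they add was not estimated. The pulldown contained PV+ interneuron mRNA but was not free of other cells. The 12 PV+ interneuron markers examined, among them *Pvalb*, *Gad1* and *Syt2*, summed to 2778 to 5046 CPM in the CNO samples and 1347 to 3606 CPM in the vehicle samples. Some of them, such as *Gad1* and *Gad2*, are shared with other GABAergic interneurons. *Gad1* alone had 1332 to 2579 CPM with CNO and 613.4 to 1674 CPM with vehicle. Levels summed or averaged over this list are therefore not particular to PV+ cells. The 12 pyramidal cell markers, among them *Slc17a7* and *Neurod6*, summed to 1137 to 1449 CPM with CNO and 1304 to 1660 CPM with vehicle, and no marker of any cell type examined was at 0 in all samples. Vehicle replicate 1 stood apart, with a mean log2 CPM of PV+ markers of 5.61 against 6.88 to 7.13 in the other vehicle samples and 6.69 to 7.54 in the CNO samples. In bulk samples, fewer PV+ cells and less mRNA per PV+ cell cannot be told apart. *Fos*, examined as a check of activity, was at 32.2 to 69.5 CPM with CNO and 11.3 to 15.8 CPM with vehicle (edgeR adjusted p = 0.052). It passed the cut-offs in 6 of 20 alternatives, DESeq2 among them (adjusted p = 6.14e-13). Of 8 activity genes examined, all had a positive log2 fold change, with *Fos* the largest. An unadjusted edgeR p under 0.05 was found for 5 (62.5%), compared with 1.44% of all genes in this direction. *Egr1* (0.07, edgeR unadjusted p = 0.705) and *Npas4* (0.15, edgeR unadjusted p = 0.619) differed little.

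The receptor mRNA on these ribosomes was mainly *Grin1*, *Grin2a* and *Grin2b*, with much less *Grin2d*, *Grin2c* and *Grin3a* and almost no *Grin3b*. Levels are compared between genes as TPM, which divides counts by transcript length. *Grin1* had 150.0 ± 7.32 TPM over the 8 samples (SD), more than 93.5% of the 17495 genes that passed the filter on low counts. *Grin2a*, the main GluN2 subunit of the adult cortex, followed with 61 ± 27.7 TPM, and *Grin2b*, the main GluN2 subunit of the immature cortex, with 38.6 ± 12.8 TPM (both SD, 8 samples). *Grin2d*, whose receptors deactivate slowly and are weakly blocked by magnesium, had 9.76 ± 1.71 TPM, and *Grin2c* had 9.27 ± 1.39 TPM. *Grin3a*, which encodes a glycine-binding subunit that lowers the calcium permeability of the receptor, had 6.22 ± 0.806 TPM. *Grin3b*, its paralogue known chiefly from motor neurons, had 0.148 ± 0.105 TPM, or 3.11 to 15.3 counts per sample.

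**Figure D1:**
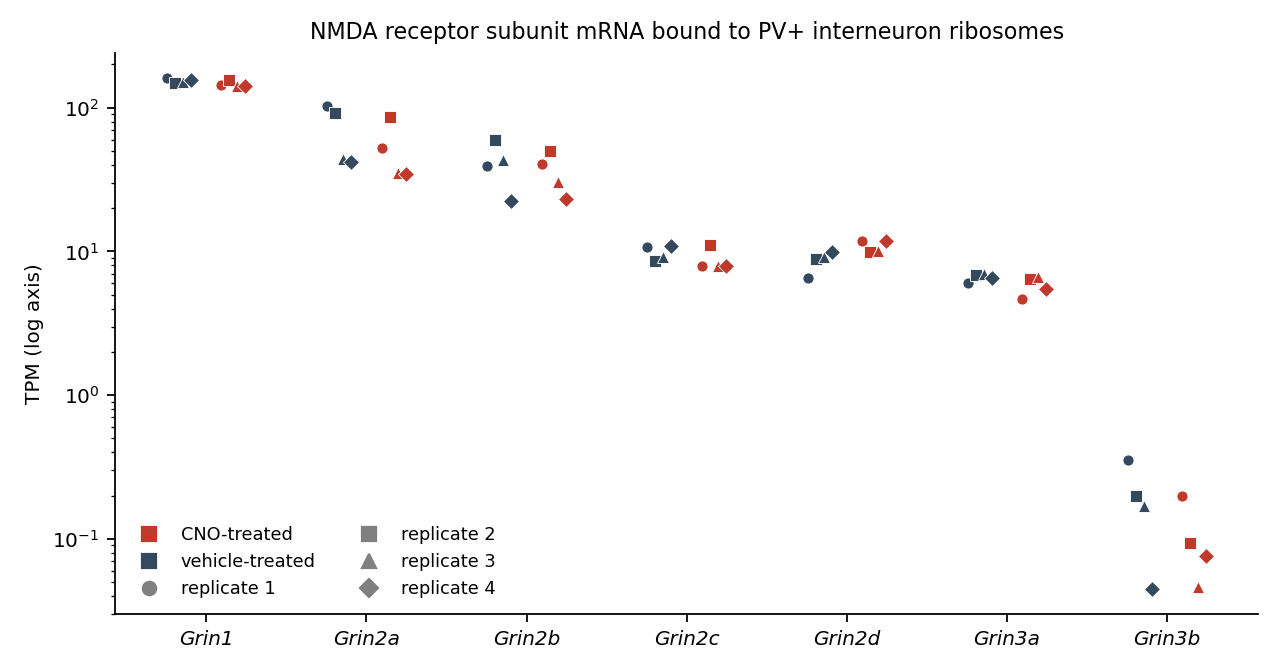
TPM (log axis) of the 7 subunit genes in each of the 4 CNO-treated and 4 vehicle-treated samples, with one symbol per replicate number. *Grin1* sits at 140.6 to 160.9 TPM in every sample, *Grin2a* and *Grin2b* spread between 22.6 and 102.1, and *Grin3b* stays between 0.0451 and 0.352.

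The order of the levels was the same in each sample at most steps. *Grin1* was higher than *Grin2a* in 8 of 8 samples, by 1.58 to 4.09 times. *Grin2a* was higher than *Grin2b* in 8 of 8 samples, although by only 1.01 times in vehicle replicate 3 and 2.61 times in vehicle replicate 1, and the ranges of these 2 genes overlapped. *Grin2b* exceeded *Grin2d* 1.97 to 6.67 times. *Grin2d* and *Grin2c* did not differ beyond their spread, since *Grin2d* was the higher of the pair in 5 of 8 samples. *Grin2c* exceeded *Grin3a* in 8 of 8 samples by 1.2 to 1.77 times, and *Grin3a* exceeded *Grin3b* at least 17.1 times.

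Among the 4 GluN2 genes, *Grin2a* made up 41.6% to 64.4% of the summed TPM of a sample and *Grin2b* 24.7% to 41.1%. *Grin2c* made up 5.07% to 12.7% and *Grin2d* 4.11% to 15.3%. From CPM, which is not divided by transcript length, the ranges were narrower. They were 46.1% to 54.5% for *Grin2a*, 29.3% to 34.5% for *Grin2b*, 7.38% to 10.1% for *Grin2c* and 5.78% to 13.7% for *Grin2d*. The lowest share of *Grin2d* was that of vehicle replicate 1, the sample with the fewest PV+ markers, and the highest was that of CNO replicate 4, the sample with the most. Pyramidal markers were present in all samples, and how much of the *Grin1*, *Grin2a* and *Grin2b* signal came from other cells was not tested.

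No subunit passed the cut-offs of the study, and 6 of the 7 genes had enough counts to be tested. These cut-offs require over 1.5-fold change, over 1 TPM on average and an adjusted p below 0.05. Across all 17495 genes tested by the quasi-likelihood test of edgeR the same cut-offs called 0 genes (0%). The paper instead used edgeR with a robust dispersion model and reported differentially expressed genes. An alternative fit with robust dispersion and a likelihood ratio test called 12 genes, none of them a subunit. In the quasi-likelihood test, unadjusted p-values were under 0.05 for 464 genes with lower levels under CNO (2.65% of the genes tested). They were under 0.05 for 252 with higher levels (1.44%). Of the 6 subunits, *Grin2b* was among the former and *Grin2d* among the latter. The other 4 subunits lay within 0.12 log2 units of no difference. The median log2 fold change was −0.08 over the 6 subunits and 0.00 over all genes tested.

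*Grin1* had nearly equal levels in the 2 groups. It had 221.8, 219.6, 220.9 and 235.9 TMM-normalized CPM (CPM also scaled for library composition) in CNO replicates 1 to 4. In vehicle replicates 1 to 4 it had 198.1, 213.4, 233.5 and 228.4 CPM. The CNO samples lay within or just above the range of the vehicle samples. The log2 fold change was 0.04 (standard error 0.09, 95% interval −0.17 to 0.25; edgeR adjusted p = 0.911), so an increase above 1.19-fold lay outside the interval. Without vehicle replicate 1 it was −0.01.

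*Grin2b* had a mean level lower by 15.7% with CNO, a difference that did not pass the test after adjustment. It had 63.7, 65.4, 54.3 and 52.5 CPM with CNO and 67.1, 74.8, 67.3 and 70.6 CPM with vehicle. All 4 CNO samples were below all 4 vehicle samples, with CNO replicate 2 and vehicle replicate 1 closest to each other. Of all genes tested, 1.63% had groups that did not overlap in this direction and 0.789% in the other. The log2 fold change was −0.25 (standard error 0.10, 95% interval −0.46 to −0.03), with an unadjusted p of 0.0297 and an adjusted p of 0.817 from edgeR. The exact two-sided permutation test of its log2 CPM gave p = 0.0286, the smallest value that 4 samples against 4 allow. On the TPM scale the groups overlapped, with 23.3 to 49.9 TPM under CNO and 22.6 to 59.4 TPM under vehicle. With limma on log2 TPM the log2 fold change was −0.17 and the unadjusted p 0.58.

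*Grin2d* had a mean level 27.1% higher with CNO, which did not pass the test after adjustment either. Its CPM values were 22.7, 18.8, 19 and 23.7 with CNO and 12.6, 16.6, 18.8 and 18.2 with vehicle. In 3 of the 4 CNO samples the level was above the highest vehicle sample, and CNO replicate 2 was at the level of vehicle replicate 3. The log2 fold change was 0.35 (standard error 0.14, 95% interval 0.04 to 0.65), with an unadjusted p of 0.0314 and an adjusted p of 0.817 from edgeR, and the exact two-sided permutation test gave p = 0.0571. On the TPM scale the CNO samples, 9.88 to 11.8 TPM, lay just above the vehicle samples, 6.51 to 9.86 TPM, as they did in 0.629% of all genes. The lowest value belonged to vehicle replicate 1. Without that sample the log2 fold change was 0.23 (95% interval −0.01 to 0.47, unadjusted p = 0.0599).

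**Figure D2:**
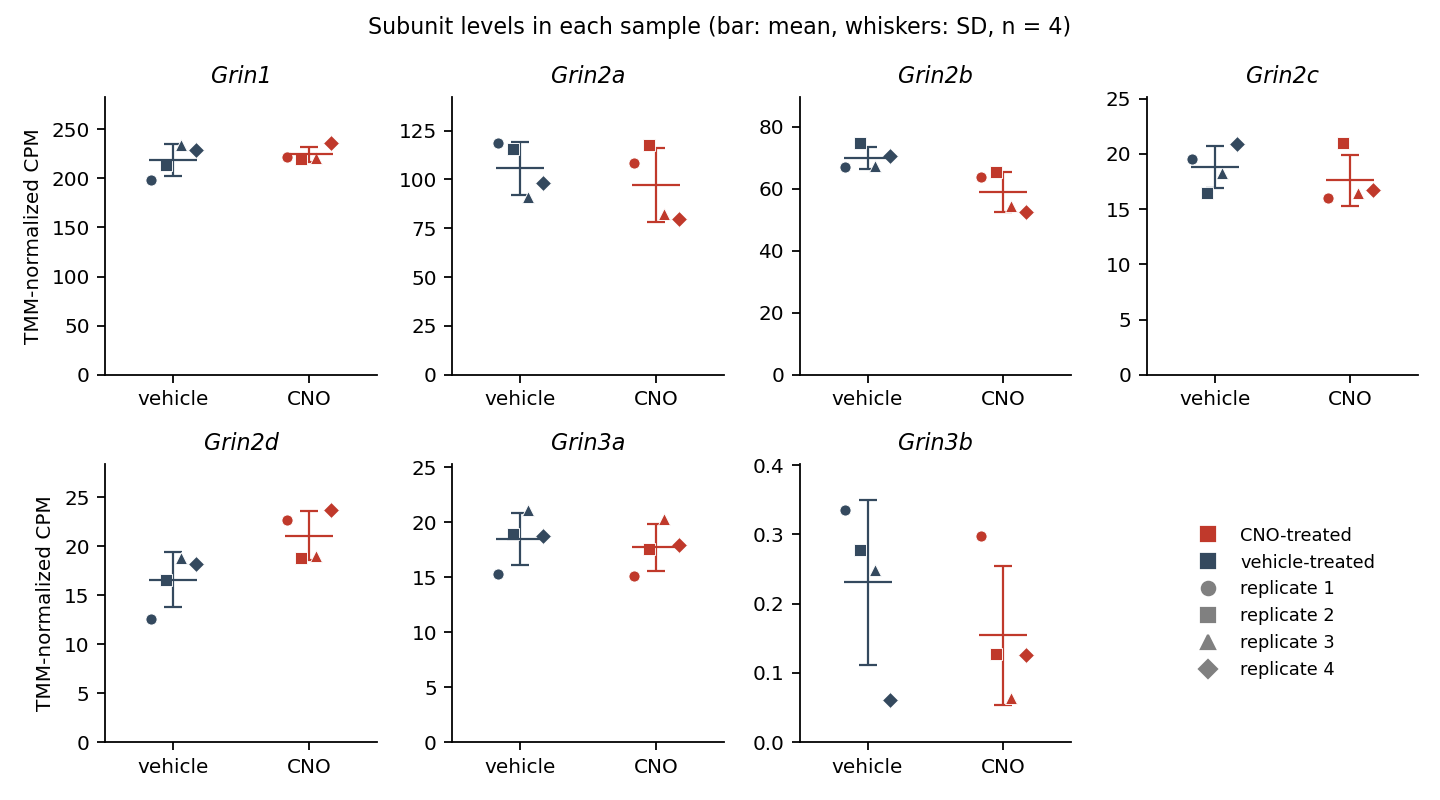
TMM-normalized CPM of each subunit gene by group, with points for the 4 samples of a group, a bar for the mean and whiskers for the SD. *Grin2b* is the gene whose groups do not overlap (52.5 to 65.4 CPM with CNO, 67.1 to 74.8 with vehicle), and *Grin2d* shows a low vehicle replicate 1 at 12.6 CPM.

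*Grin2a* varied more between replicates than between groups. It had 108.6, 117.6, 82.4 and 79.7 CPM with CNO and 118.7, 115.6, 90.8 and 98.1 CPM with vehicle. In both groups replicates 1 and 2 were above replicates 3 and 4, with means of 113.1 and 81 CPM under CNO and 117.2 and 94.4 CPM under vehicle. The labels do not say whether these replicate numbers mark a day or batch. Between groups the log2 fold change was −0.12 (standard error 0.15, 95% interval −0.45 to 0.20; edgeR adjusted p = 0.83).

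*Grin2c*, a subunit best known from cerebellar granule cells and glia, had 16, 21, 16.5 and 16.7 CPM with CNO and 19.5, 16.5, 18.3 and 20.9 CPM with vehicle. CNO replicate 2 had the highest value of all, and the groups overlapped. Their difference on the log2 scale was −0.10 (standard error 0.12, 95% interval −0.36 to 0.16; edgeR adjusted p = 0.831). *Grin3a* had 15.1, 17.6, 20.3 and 17.9 CPM with CNO and 15.3, 18.9, 21.1 and 18.7 CPM with vehicle. Its groups covered almost the same range, and the log2 fold change was −0.06 (standard error 0.12, 95% interval −0.34 to 0.21; edgeR adjusted p = 0.895).

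*Grin3b* had too few counts for the filter, which excluded genes with under 10 counts in 4 samples or more. Its CPM values were 0.297, 0.127, 0.0642 and 0.126 with CNO and 0.335, 0.278, 0.249 and 0.0605 with vehicle. CNO replicate 3 and vehicle replicate 4 were at about the floor of 3 counts. In a fit with no filter the log2 fold change was −0.58 with a 95% interval of −1.82 to 0.67 (edgeR adjusted p = 0.773), and no difference was detectable at this depth.

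In TMM-normalized CPM, *Grin2d* and *Grin1* were lowest in vehicle replicate 1, the sample with the fewest PV+ markers. They were highest in CNO replicate 4, the sample with the most. In TPM *Grin1* was reversed, with its highest value in vehicle replicate 1 (160.9) and its lowest in CNO replicate 4 (140.6). *Grin2d* was lowest in vehicle replicate 1 in TPM too (6.51). A marker index was calculated for each sample by subtracting the mean log2 CPM of the 12 pyramidal cell markers from that of the 12 PV+ interneuron markers. It was 1.92, 1.17, 1.76 and 2.36 in CNO replicates 1 to 4 and −0.07, 1.32, 1.78 and 1.66 in vehicle replicates 1 to 4. Compared with the mean of the other 3 vehicle samples, vehicle replicate 1 was lower by 1.40 log2 units in PV+ markers and higher by 0.26 in pyramidal markers. In the same sample *Grin2d* was at 3.66 log2 CPM against 4.06 to 4.24 in the other vehicle samples, *Grin3a* at 3.94 against 4.23 to 4.40 and *Grin1* at 7.63 against 7.74 to 7.87. *Grin2a* was above the other vehicle samples there, at 6.89 against 6.50 to 6.85.

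**Figure D3:**
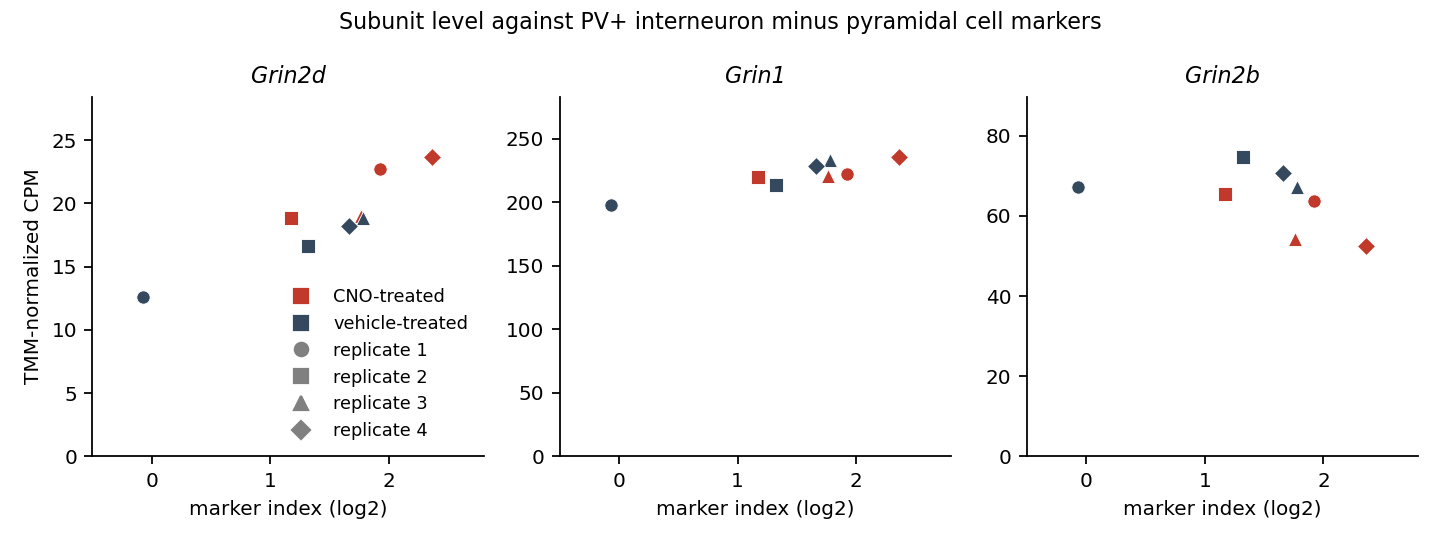
TMM-normalized CPM of *Grin2d*, *Grin1* and *Grin2b* (vertical axes) against the marker index (log2, PV+ interneuron minus pyramidal cell markers), with one point per sample. Vehicle replicate 1 lies alone at an index of −0.07 with 12.6 CPM of *Grin2d*, and CNO replicate 4 has both the highest index, 2.36, and the highest *Grin2d* level, 23.7 CPM.

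All 12 PV+ markers had a positive log2 fold change with CNO (median 0.46), of which *Gad2*, a GABA-synthesizing enzyme, was the single gene with an unadjusted p under 0.05 (0.52, edgeR adjusted p = 0.817). Without vehicle replicate 1 this held for 11 of 12, with a median of 0.21, and *Kcnc1* was negative. The log2 fold change was negative for 11 of 12 pyramidal markers (median −0.12, and −0.06 without vehicle replicate 1), and for 49.6% of all genes tested. The median was −0.23 over 8 oligodendrocyte markers, −0.22 over 6 microglial markers, −0.17 over 10 markers of other interneurons, −0.09 over 8 astrocyte markers and 0.29 over 6 vascular markers. With the marker index as a covariate, the log2 fold change of *Grin2d* was 0.16 (95% interval −0.02 to 0.35, unadjusted p = 0.0786), less than the 0.35 without it, and that of *Grin2b* was −0.22 (95% interval −0.42 to −0.02, unadjusted p = 0.0323). *Grin2a* moved from −0.12 to 0.02 and *Grin1* from 0.04 to −0.03. The mean index was higher in the CNO group by 0.63 log2 units, and by 0.22 without vehicle replicate 1. Since the index was measured after treatment and differed with it, an effect of CNO and a difference in marker content cannot be told apart.

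**Figure D4:**
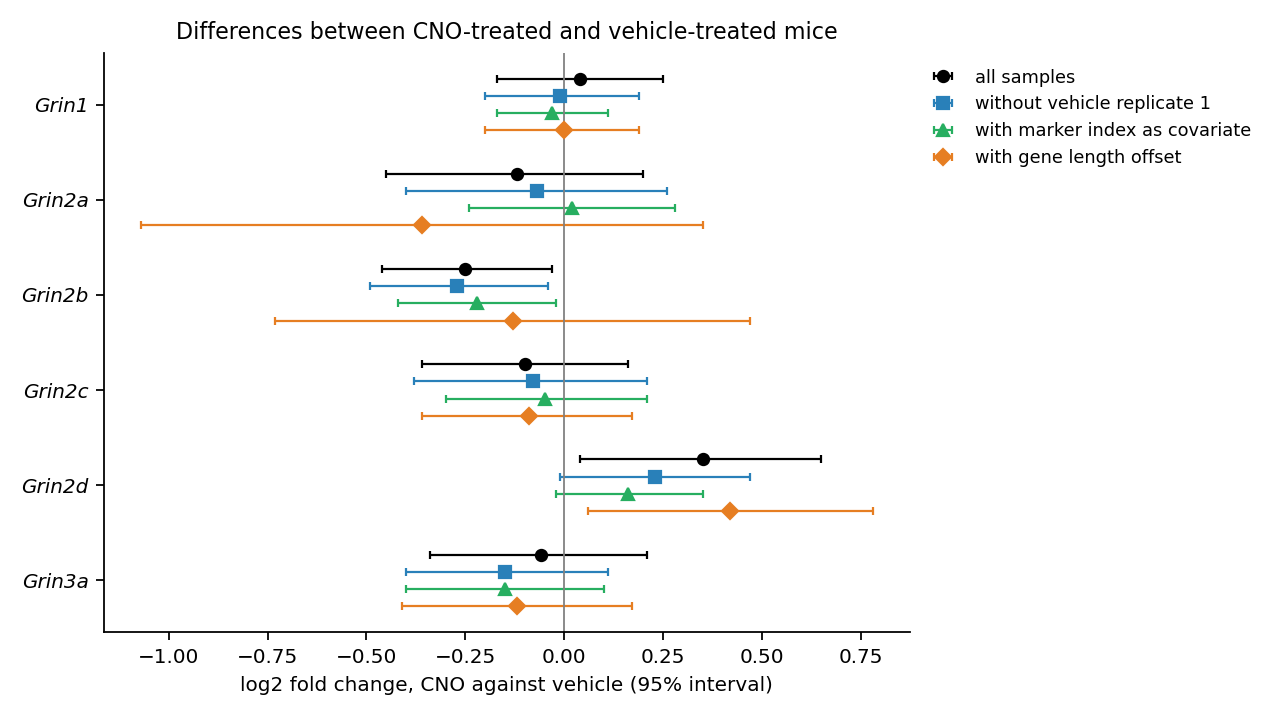
Log2 fold change of CNO against vehicle with 95% intervals for the 6 subunits tested, from the fit of all samples, without vehicle replicate 1, with the marker index as a covariate and with an offset for gene length. *Grin2d* shrinks from 0.35 to 0.23 and 0.16 without vehicle replicate 1 and with the marker index, and *Grin2b* keeps −0.27 and −0.22 but widens to an interval of −0.73 to 0.47 with the length offset.

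The counts and the TPM of *Grin2a* and *Grin2b* diverged, since the transcript length by which counts were divided changed from sample to sample. TPM is calculated from the mix of transcripts assigned to a gene, so the ratio of counts to TPM gives the implied transcript length in each sample, here scaled on 1017 genes with a single annotated transcript. For *Grin2a* it was 4620, 3297, 5218 and 4975 nucleotides in CNO replicates 1 to 4 and 2892, 2946, 4623 and 5497 in vehicle replicates 1 to 4. For *Grin2b* it was 3506, 3155, 3953 and 4838 nucleotides with CNO and 4262, 2948, 3468 and 7393 with vehicle. The longest was 1.9 times the shortest in *Grin2a* and 2.51 times in *Grin2b*, compared with a median of 1.06 times over 13534 genes with at least 50 counts in every sample.

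The spread of the log2 length, 0.381 for *Grin2a* and 0.424 for *Grin2b* (SD, 8 samples), was larger than that of 99.6% and 99.8% of these genes. The lengths of the groups overlapped (exact two-sided permutation test, p = 0.4 for *Grin2a* and p = 0.743 for *Grin2b*). The other tested subunits varied by 1.03 times (*Grin2c*) to 1.18 times (*Grin1*). GENCODE lists 3 coding transcripts of *Grin2a* with the same coding length of 4392 nucleotides and 3′ UTRs of 3, 89 and 9932 nucleotides. For *Grin2b* the full-length coding transcripts, of 4446 coding nucleotides, have 3′ UTRs of 2275 and 18868 nucleotides, and 4 shorter transcripts are annotated. The shortest coding transcript of *Grin2a* has 4395 nucleotides in all, more than the lowest implied length of 2892. For *Grin2b* no sample reached the 7484 nucleotides of the shorter full-length coding transcript. Which transcripts the reads came from, and how this affected TPM, was not tested, since the deposited values are per gene.

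**Figure D5:**
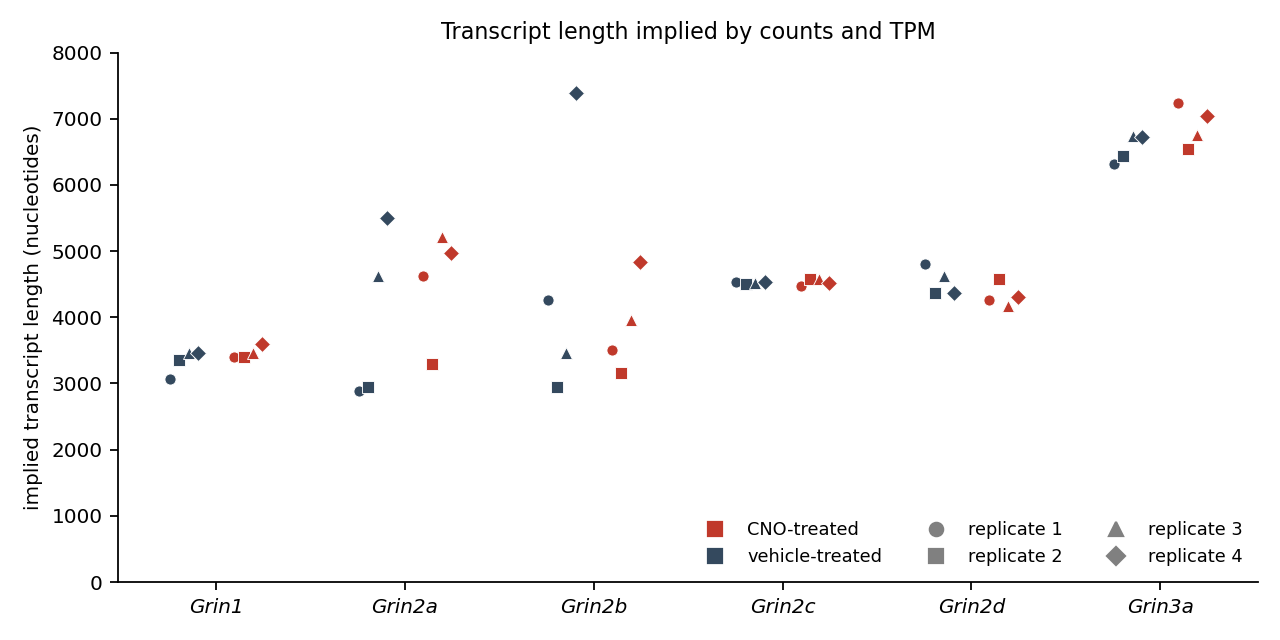
Transcript length in nucleotides implied by the ratio of counts to TPM for the 6 subunits tested, with one point per sample. *Grin2a* ranges from 2892 to 5497 and *Grin2b* from 2948 to 7393, whereas *Grin2c* stays between 4466 and 4586.

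When the same mean length was used for a gene in all samples, the levels of *Grin2a* and *Grin2b* were steadier and the order of the genes was unchanged. That length was the mean of the implied lengths above, 4258 nucleotides for *Grin2a* and 4191 for *Grin2b*. The order therefore still depends on these lengths, and it was not tested with annotated transcript lengths. *Grin1* then had 65.1 ± 3.55 CPM per kilobase (SD, 8 samples), *Grin2a* 23.8 ± 3.74, *Grin2b* 15.4 ± 1.82, *Grin2d* 4.24 ± 0.778, *Grin2c* 4.01 ± 0.455 and *Grin3a* 2.69 ± 0.315. *Grin2a* exceeded *Grin2b* in 8 of 8 samples, by 1.33 to 1.77 times.

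The ratio of subunits within a sample, which does not depend on scaling between samples, overlapped between the groups for all 3 ratios compared. The TPM ratio of *Grin2a* to *Grin2b* was 1.29, 1.72, 1.15 and 1.47 with CNO and 2.61, 1.55, 1.01 and 1.87 with vehicle. The groups overlapped, with a log2 difference of −0.25 (exact two-sided permutation test, p = 0.457, adjusted over the 3 ratios 0.6). Calculated from CPM this ratio had the opposite sign, 0.12 (exact p = 0.371). The TPM ratio of *Grin2d* to *Grin2a* plus *Grin2b* was 0.128, 0.0728, 0.154 and 0.205 with CNO and 0.0461, 0.0589, 0.104 and 0.152 with vehicle. Its log2 difference was 0.69 (exact p = 0.2, adjusted 0.6), and from CPM 0.54 (exact p = 0.0857, adjusted 0.257). The summed GluN2 genes amounted to 0.547 to 1.13 times *Grin1* in TPM, with a log2 difference of −0.19 (exact p = 0.6, adjusted 0.6). From CPM this difference was −0.17 (exact p = 0.286, adjusted 0.371). Single samples moved the TPM differences: that of *Grin2a* to *Grin2b* was −0.04 without vehicle replicate 1 and −0.49 without vehicle replicate 3. For *Grin2d* to *Grin2a* plus *Grin2b* it was 0.42 without vehicle replicate 1 and 1.00 without vehicle replicate 4, and for the GluN2 sum to *Grin1* −0.02 without vehicle replicate 2 and −0.37 without vehicle replicate 4.

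Of 63 genes for scaffolds, co-agonist supply, kinases and phosphatases, downstream signalling and membrane partners of the receptor, 62 were tested and 0 passed the cut-offs. An unadjusted p under 0.05 was found for 3 of them (4.84%), all lower with CNO, compared with 2.65% of all genes. Their log2 fold change was negative in 41 (66.1%) and positive in 21, with a median of −0.04. Of all genes tested, 49.6% had a negative log2 fold change.

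Among 21 postsynaptic scaffolds and trafficking adaptors, *Dlgap2*, which links the PSD-95 family to Shank proteins, had 208.3, 246.6, 256.4 and 214.4 CPM with CNO and 308.1, 267.2, 262.9 and 277.7 CPM with vehicle, without overlap. The log2 fold change was −0.27 (standard error 0.11, unadjusted p = 0.0309, edgeR adjusted p = 0.817). Of this list, 2 genes did not overlap between groups, *Dlgap2* and its relative *Dlgap1* (named after its values were seen; −0.18, unadjusted p = 0.135), both lower with CNO; 1.63% of all genes did not overlap in that direction. The extremes of the list were *Actn2*, an actin crosslinker that binds the receptor, at −0.44 and *Apba1*, an adaptor for the transport of GluN2B vesicles, at 0.37, and neither had an unadjusted p under 0.05.

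Of the 8 genes that make or move the co-agonists D-serine and glycine, 7 were tested. All 7 had small negative log2 fold changes, compared with negative values in 49.6% of all genes tested. They ranged from −0.20 for *Phgdh*, the first enzyme of serine synthesis, to −0.02 for the glycine transporter *Slc6a9*. *Dao*, the enzyme that degrades D-serine, was not tested for lack of counts. The 14 kinases and phosphatases had a median of −0.04 and ranged from −0.25 for the tyrosine kinase *Ptk2b* to 0.27 for *Cdk5*. The 14 downstream signalling genes had a median of −0.01 and ranged from −0.18 for the kinase *Dapk1* to 0.35 for the calmodulin gene *Calm3*. No gene of these 3 lists had an unadjusted p under 0.05.

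The 6 membrane partners included the other 2 genes with an unadjusted p under 0.05. *Ephb1*, a receptor tyrosine kinase of the ephrin receptor family that associates with NMDA receptors, had 17.4, 20.9, 15.2 and 12.7 CPM with CNO and 32.1, 23.8, 18.9 and 16.8 CPM with vehicle, with the highest value in vehicle replicate 1 and overlapping groups (log2 fold change −0.47, standard error 0.21, edgeR adjusted p = 0.817). *Reln*, the ligand of the receptor-associated protein LRP8 and also a marker of other interneurons, had 25.4, 22.6, 28.4 and 21.8 CPM with CNO and 30.1, 23.8, 34 and 31.8 CPM with vehicle (log2 fold change −0.29, standard error 0.13, edgeR adjusted p = 0.817). *Neto2*, an auxiliary subunit of kainate receptors, had the highest value of the list, 0.06.

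Across the 8 samples, Pearson's r of log2 CPM was 0.83 between *Grin1* and *Grin2d*, 0.75 between *Grin2a* and *Grin2b* and −0.72 between *Grin1* and *Grin2a*. These values describe 8 points that share library depth, marker content and treatment. They hold for CPM only, and correlations of TPM were not calculated. In TPM *Grin1* was highest in vehicle replicate 1 (160.9), the sample in which *Grin2d* was lowest (6.51). Among 15173 genes with a mean TPM above 1, the most similar to *Grin2d* were *Senp8* (r = 0.99), *BC003331* (0.99) and *RP23-57A17.2* (0.98), and to *Grin1* *4931428F04Rik* (0.99), *Tmem184b* (0.98) and *P4hb* (0.98). For *Grin2a* they were *Cdk12* (0.99), *Sorbs2os* (0.99) and *Gm13543* (0.98), and for *Grin2b* *RP24-503L4.4* (0.99), *Sertad2* (0.96) and *Hhip* (0.95). *Grin2c* was most like *Nisch* (0.99), *Plekhm2* (0.97) and *Arid2* (0.97), and *Grin3a* was most like *Palm* (0.96), *Thsd4* (0.96) and *Stbd1* (0.95). They are the maxima over many candidates and only 8 samples.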

How the data were processed

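Ribosome-associated mRNA was purified through HA-tagged RPL10a from S1, and RNA with an integrity number above 9 was made into unstranded SMARTer libraries and sequenced on an Illumina HiSeq. Per the labels and methods, the authors used FastQC, Trim Galore, STAR and Salmon on GRCm38 and tximport, and versions are not given in the sources used here. They deposited estimated counts per gene without normalization, and TPM, which divides by a sample-specific transcript length.

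Counts were rounded, and genes under 10 counts in 4 or more samples were left out. The CNO and vehicle groups were compared with edgeR 4.0.16 (R 4.3.3) after TMM normalization, using the quasi-likelihood test and Benjamini-Hochberg adjustment over 17495 genes. The common biological coefficient of variation was 0.183. Log2 CPM of single samples used a prior count of 2, and single values were compared over the 70 assignments of 4 against 4. Alternatives used DESeq2 1.42.0, limma 3.58.1 on log2 TPM plus 1 or 0.1, other scalings, filters and covariates, and each sample left out. Sequence comparisons used Biopython 1.88, and plots matplotlib 3.10.9. Positions and transcripts came from GENCODE M21, which holds 45143 of 45706 gene identifiers.

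The 7 genes, the gene lists and the markers were chosen with earlier results of these data known. Named were all 7 subunits, *Fos* and activity genes beside it, the markers set beside a result, and the 3 genes most correlated with each subunit above 1 TPM. Each list of receptor partners gave its genes with the highest and lowest log2 fold change and those with an unadjusted p under 0.05. Markers that met these terms were not all named. P-values measure the spread between pools. No 2 samples had identical values. The gate sequence of the remaining 2 subunits is not reported here.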

Additional observations from a re-analysis of the deposited data

Results flagged for a closer look

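Among 36 groups of 4 samples examined (18 measures: the CPM of the 7 subunits, 6 implied transcript lengths, 3 subunit ratios and 2 marker levels), 3 held 1 sample far from the others by Dixon's test, where chance alone flags about 1.8. For *Grin1* the gap of CNO replicate 4, at 235.9 CPM, to the next sample was 0.866 of the range of the group, which was narrow (219.6 to 235.9 CPM). For *Grin2c* the gap of CNO replicate 2, at 21 CPM, was 0.856 of the range. For the PV+ interneuron markers the gap of vehicle replicate 1 was 0.829 of the range, just past the critical value, with a mean log2 CPM of 5.61 against 6.88 to 7.13 in the other vehicle samples.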

How the results depend on the processing

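In all 20 alternatives 0 subunits and 0 partner genes were called. Over the whole table, 10 genes were called by DESeq2, 12 by edgeR's robust dispersion and likelihood ratio test, 4 with no filter, 1 with at least 10 counts in all samples and 3 with a block of replicates 1 and 2 against 3 and 4, and with 1 sample left out the count was 0 to 2 (2 without CNO replicate 1). With the replicate number as a block, 0 genes and 0 subunits were called. Same-numbered samples deviated together, with r above 0.1, in 2 of 4 pairs, and 1 of 4 CNO samples was most like its own number. *Grin2b* stayed negative (−0.30 to −0.13) and *Grin2d* positive (0.16 to 0.42) throughout, with unadjusted p under 0.05 in 13 and 14 of 20 alternatives. The gene length offset, chosen after seeing the data, gave −0.13 for *Grin2b* (edgeR unadjusted p = 0.644) and −0.36 for *Grin2a*. The sign turned in *Grin1* with library size only (−0.01), limma on log2 TPM plus 1 (−0.08) or plus 0.1 (−0.09), the marker index (−0.03) and the length offset (−0.0045), in *Grin2a* with the marker index (0.02), and in the *Grin2a* to *Grin2b* ratio from CPM (0.12). The cause was not tested. Leaving out 1 sample gave −0.0082 to 0.07 for *Grin1* (negative without vehicle replicate 1) and −0.15 to 0.0065 for *Grin3a* (positive without CNO replicate 1 or vehicle replicate 3). It gave −0.23 (without CNO replicate 2) to −0.05 (without CNO replicate 3 or 4) for *Grin2a* and −0.20 (without CNO replicate 2) to −0.04 (without vehicle replicate 4) for *Grin2c*. For the ratios it gave −0.49 to −0.04 (*Grin2a* to *Grin2b*), 0.42 to 1.00 (*Grin2d* to *Grin2a* plus *Grin2b*) and −0.37 to −0.02 (GluN2 sum to *Grin1*).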
